A study of Homo sapiens with 16 samples.

Results

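MM.1S is a human multiple myeloma cell line, a culture of malignant plasma cells. The comparison described here asks what the EZH2 inhibitor GSK126 changed in MM.1S cells when it was given together with the G9a inhibitor UNC0638, relative to UNC0638 alone. It rests on 4 of the 16 arrays of the series: 2 of cells given 1 µM of each drug for 6 days (GSK126+UNC0638) and 2 of cells given 1 µM UNC0638 for 6 days (UNC0638), chosen by their labels and not by any measured value. Both groups carried UNC0638, so the difference between them is the addition of GSK126. In the same cell line 2 DMSO arrays and 2 GSK126 arrays (1 µM, 6 days) served to measure the same addition without UNC0638, and 8 arrays of the myeloma line RPMI-8226, under the same 4 treatments, served to measure it in a second line. MM.1S is 1 established line grown in culture with serum, so the arrays hold no marrow cells, and within bulk RNA fewer cells of one kind and less RNA per cell cannot be told apart.

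EZH2 is the catalytic subunit of Polycomb repressive complex 2 (PRC2), which methylates lysine 27 of histone H3 and keeps developmental and lineage genes silent. G9a, encoded by EHMT2, works with its partner GLP to place methyl groups on lysine 9 of histone H3, a mark also tied to silencing. Plasma cells depend on the transcription factors IRF4, PRDM1 and XBP1, and myeloma cells in addition on MYC, while genes of the earlier B cell programme such as BCL6 are normally shut off.

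A level below is the log2 intensity of a probe minus the 75th percentile of its own array, so that 0 stands for that percentile, and a difference is GSK126+UNC0638 minus UNC0638 on this log2 scale, with its standard error from the fit over the 8 MM.1S arrays. Between 51.27% and 52.85% of the spots of the 4 arrays were well above background, and the 2 arrays of a group correlated with r = 0.994 for both groups. All 7 plasma cell markers (SDC1, TNFRSF17, IRF4, PRDM1, XBP1, CD38 and SLAMF7) were well above background on all 4 arrays, and their summed level, as log2, lay between 8.09 and 8.48. Among markers of other cells, 0 of 8 fibroblast, 3 of 9 myeloid, 6 of 10 T and NK cell and 5 of 6 erythroid genes were above background on all 4 arrays. The T and NK cell genes above background on all 4 were CD3D (-3.79 to -3.29), CD3E (-2.69 to -2.43), CD8A, CD4 (2.51 to 2.73), TRAT1 and GNLY, and the myeloid ones were CD14, CD68 and ITGAM, while NKG7, KLRD1, NCR1, MPO, ELANE and CSF1R were above background on none. The fibroblast genes COL1A1, COL1A2, COL3A1, LUM and THY1 and the erythroid ALAS2 were also above background on none, and HBB, at 4.27 to 4.48, was the brightest of the erythroid genes. The part of these genes in the results was not tested.

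Adding GSK126 to UNC0638 raised a set of strongly responding genes and lowered a larger set by smaller amounts. Of 24416 probes tested with limma, 1621 (6.64%) were higher and 2035 (8.33%) lower with GSK126+UNC0638 at an adjusted p below 0.05, which is 15.0% in either direction. The median difference was 0.82 among the probes that rose and -0.49 among those that fell. Among these probes, more than 2-fold changes were mostly rises, with 598 up and 77 down, and beyond 4-fold there were 134 up and 6 down. With each gene represented by its brightest tested probe, 1227 of 16708 genes (7.34%) rose and 1445 (8.65%) fell, and the median over all genes was -0.05. The split between rises and falls moved with the scaling: when the percentile was taken over probes detected on all arrays, 2052 probes were higher and 848 lower. The number of calls rested on single arrays, being 273 without UNC0638 replicate 1, 637 without UNC0638 replicate 2, 268 without GSK126+UNC0638 replicate 2 and 2186 without GSK126+UNC0638 replicate 1, and it was 553 when only the 4 arrays entered the fit.

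The chemokine CXCL13, which attracts B cells through the receptor CXCR5, showed the largest rise among genes measured in both groups. Its probe (chr4:78532646-78532705, GRCh37) lay at -4.02 and -4.61 with UNC0638 and at 0.17 and 0.47 with GSK126+UNC0638. The difference was 4.63 ± 0.26 (SE), or 24.8-fold (adjusted p = 0.00395), and the same probe differed by 5.40 between GSK126 and DMSO. BCL6, the repressor that defines germinal centre B cells, rose with it from -2.24 and -1.85 to 0.12 and 0.46, a 5.04-fold change (2.33 ± 0.29, adjusted p = 0.0116). FCRL4, an Fc receptor-like protein of memory B cells, went from -4.62 and -4.2 to -1.51 and -1.23, or 8.24-fold (3.04 ± 0.32, adjusted p = 0.00873). All were chosen among called probes whose groups do not overlap. The size of such changes in dim probes depended on the background correction: with normexp in its place, CXCL13 differed by 2.85, FCRL4 by 1.61 and BCL6 by 1.79.

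**Figure D1:**
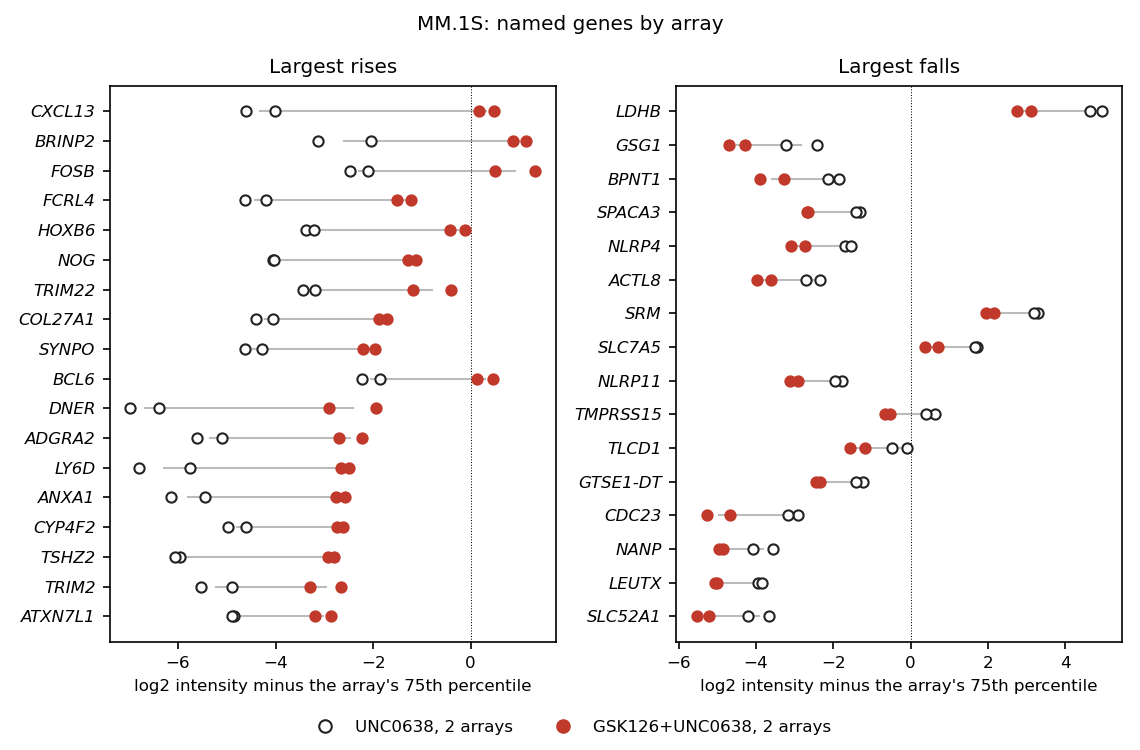
Level of each named gene on each array (log2 intensity minus the array's 75th percentile), for 18 of the largest rises (left) and 16 of the largest falls (right). Open points are the 2 UNC0638 arrays, filled points the 2 GSK126+UNC0638 arrays and the grey line joins the group means; only genes whose groups do not overlap were chosen, and CXCL13 has the widest gap among genes measured in both groups, 4.63.

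Other large rises followed. HOXB6, a homeobox gene of the HOXB cluster (probe at chr17:46673193-46673252, GRCh37), measured -3.37 and -3.20 with UNC0638 and -0.11 and -0.42 with both drugs, an 8.10-fold rise (3.02 ± 0.21, adjusted p = 0.00489). NOG encodes noggin, a secreted antagonist of bone morphogenetic proteins, and rose from -4.05 and -4.03 to -1.13 and -1.29, or 7.12-fold (2.83 ± 0.20, adjusted p = 0.00489). The neural gene BRINP2 rose by 3.59 ± 0.43 (12-fold), and its 2 UNC0638 arrays, at -3.13 and -2.05, stood further apart than those of most named genes. FOSB, an AP-1 subunit, lay at -2.11 and -2.48 with UNC0638 and at 1.33 and 0.51 with GSK126+UNC0638, 9.29-fold higher (3.22 ± 0.48, adjusted p = 0.0164). FOSB was the one of the 12 largest measured rises whose difference between GSK126 and DMSO was below 0, at -0.87 (adjusted p = 0.280), although its test of the difference between those effects gave an adjusted p of 0.318. The group also held the interferon-induced TRIM22 (2.52), the collagen gene COL27A1 (2.43) and the actin-associated SYNPO (2.36), and all rose. A second probe for COL27A1 differed by only -0.13 and was not called, and the other 2 probes of SYNPO differed by 1.73, which was called, and 1.02, which was not.

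For 164 of the probes that rose, neither UNC0638 array was well above background, so only a lower bound of the change could be given, taken against the dimmest signal that was well above background. DNER, a Notch-like transmembrane protein, was at least 5.19-fold higher with GSK126+UNC0638 (levels -2.90 and -1.94, against -6.97 and -6.39 in UNC0638). The adhesion receptor gene ADGRA2 was at least 5.02-fold higher, LY6D, a surface protein known from B cell progenitors, at least 4.66-fold, the annexin ANXA1 at least 4.38-fold and the fatty acid hydroxylase CYP4F2 at least 4.15-fold. TSHZ2 (at least 3.83-fold), TRIM2 (at least 3.54-fold) and ATXN7L1 (at least 3.41-fold) completed this group, but the other probe of ATXN7L1 differed by 0.03. DNER, ADGRA2 and CYP4F2 were too dim for a test of GSK126 against DMSO. There DNER differed by 1.64 and ADGRA2 by 1.27, while the 2 GSK126 arrays of CYP4F2 read -6.79 and -6.90 against -6.84 and -6.76 in DMSO. These bounds hold on the processed intensities, since with normexp, which adds an offset, the differences were 1.24 for DNER, 1.03 for ADGRA2, 1.04 for LY6D and 0.68 for CYP4F2.

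The falls were smaller. LDHB, the heart-type subunit of lactate dehydrogenase, read 4.95 and 4.64 with UNC0638 and 3.11 and 2.74 with both drugs on one probe (chr12:21791305-21791364, GRCh37), a 3.65-fold fall (-1.87 ± 0.17, adjusted p = 0.00593). A second LDHB probe fell by 0.36, so the size of the change depended on the probe. SRM, the spermidine synthase, went from 3.31 and 3.20 to 2.17 and 1.95, 2.29-fold lower (-1.19 ± 0.12, adjusted p = 0.00851). The large amino acid transporter SLC7A5 was 2.23-fold lower, from 1.72 and 1.66 to 0.70 and 0.37 (-1.16 ± 0.17, adjusted p = 0.0153). The 12 largest measured falls also held SPACA3 (-1.30), NLRP4 (-1.29), NLRP11 (-1.15), ACTL8 (-1.27) and GSG1 (-1.68). The other probe of ACTL8 differed by -0.11, those of GSG1 by -1.63 and 0.06, and that of the nucleotidase BPNT1 by -0.19, against -1.60 for the named one. TMPRSS15 (-1.12), TLCD1 (-1.09) and the transcript GTSE1-DT (-1.08) made up the rest. Among genes lost below background, CDC23, a subunit of the anaphase-promoting complex, was at least 3.41-fold lower on one probe and fell by 0.32 on the other, and NANP, LEUTX and SLC52A1 were at least 2.05-fold, 1.94-fold and 1.89-fold lower.

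Interferon-stimulated genes encode proteins that block viral entry, RNA or protein synthesis, and they are switched on when factors that include STAT2 and IRF9 bind a short promoter element. Adding GSK126 raised 19 of 49 interferon effectors and lowered 0, where 7.34% of all genes rose. Their median difference was 0.40, against -0.05 over all genes. The largest members were IFIT2, which binds viral RNA and was at least 2.05-fold higher, TRIM22 (5.74-fold), the antiviral enzyme RSAD2 (4.2-fold), IFI44L (4.11-fold), the GTPase MX2 (3.44-fold) and the RNA-binding IFIT1 (2.92-fold). RSAD2 showed the step array by array, from -2.64 and -2.15 with UNC0638 to -0.40 and -0.25 with GSK126+UNC0638 (2.07 ± 0.28, adjusted p = 0.0136). ISG15, a ubiquitin-like protein, rose from 1.48 and 1.75 to 2.26 and 2.69 (0.86 ± 0.16, adjusted p = 0.0259), and MX1 from 2.15 and 2.33 to 3.15 and 3.35 (1.01 ± 0.14, adjusted p = 0.0147). The membrane proteins IFITM1, IFITM2 and IFITM3 rose by 1.19, 1.43 and 1.15, but their sequences are alike and their probes may share signal.

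**Figure D2:**
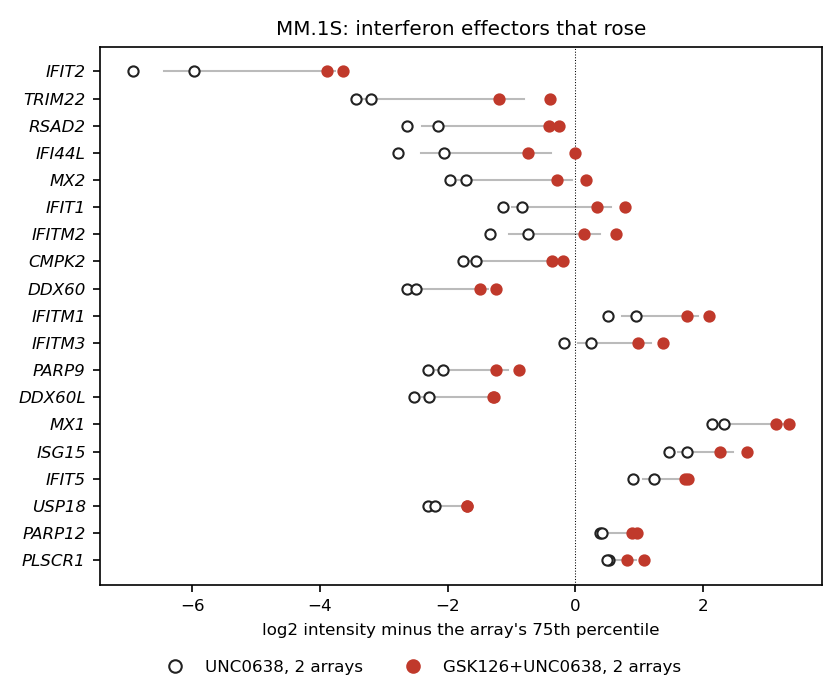
Level on each array (log2 intensity minus the array's 75th percentile) of the 19 interferon effectors that rose, ordered by the size of the difference. Open points are the 2 UNC0638 arrays and filled points the 2 GSK126+UNC0638 arrays, with a grey line between group means; the differences run from 0.43 in PLSCR1 to 2.69 in IFIT2, whose UNC0638 arrays were not well above background.

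Of interferon genes that the study had singled out, IFIT1 and ISG15 passed the test and OAS3, IFI6 and IRF9 did not. IFI6 read -0.45 and -0.22 with UNC0638 and 0.11 and 0.69 with both drugs (0.73 ± 0.22, adjusted p = 0.0695). IRF9 went from 0.20 and 0.38 to 0.64 and 0.64 (0.35 ± 0.09, adjusted p = 0.0533). In both of these the arrays of the groups did not overlap, which held for 26.1% of all probes in the higher direction and 36.8% in the lower. OAS3 did overlap, with -2.80 and -2.50 against -2.22 and -2.76 (0.16 ± 0.25, adjusted p = 0.695). The brightest members of the list that did not pass were ISG20 (-0.23) and the RNA editor ADAR (-0.06). The count of 19 was 1 without UNC0638 replicate 1, 6 without UNC0638 replicate 2, 12 without GSK126+UNC0638 replicate 1 and 0 without GSK126+UNC0638 replicate 2, while the median difference of the list stayed between 0.30 and 0.55.

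The promoter windows that RefSeq gives for these genes (GRCh38.p14, 250 bases before to 50 after the start) were searched on both strands for 2 copies of GAAA with 2 bases between them, the core of the interferon-stimulated response element. This motif was present in 27 of 39 interferon effectors with a window (69.2%), against 3.65% of 27305 promoters. The list was made of known interferon-stimulated genes, so this gap follows from its membership and does not bear on GSK126. Among the effectors that rose 11 of 14 held it (78.6%), and among those that did not pass the test 16 of 25 (64%). The following stretches were chosen because their genes rose and differ widely in size of change. They are written 5′ to 3′ on the strand of the gene. Each window held 2 matches, and only the first is in capitals (its reverse complement in IFIT1). In ISG15 the second, GAAACCGAAA, overlaps the first and runs on into the small letters.
IFI44L (chr1:78620274-78620303): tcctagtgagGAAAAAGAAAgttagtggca
IFIT1 (chr10:89392497-89392526): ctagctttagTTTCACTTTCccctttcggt
DDX60 (chr4:168318821-168318850): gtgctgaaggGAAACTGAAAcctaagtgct
IFITM3 (chr11:320893-320922): caaatgccagGAAAAGGAAActgttgagaa
ISG15 (chr1:1013374-1013403): catgcctcggGAAAGGGAAAccgaaactga
These genes rose by 2.04, 1.54, 1.19, 1.15 and 0.86 respectively. A match describes the letters of the window and not a bound site.

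Of 17 sensors of foreign nucleic acids and their adaptors 3 rose (17.6%, against 7.34% of all genes) and 1 fell. These counts are too small to describe the list as a whole. STING1 (0.74), the RNA helicase RIGI (0.67) and its relative DHX58 (0.56) were higher, and the DNA sensor CGAS was lower (-0.46). Among 16 interferon receptors and JAK-STAT genes only the feedback inhibitor SOCS1 passed, rising from -2.51 and -2.13 to -1.17 and -0.81 (1.33 ± 0.25, adjusted p = 0.0257). Antigen presentation genes were mostly without a call. Of 22 class I and peptide loading genes HLA-F rose (0.45) and the proteasome activator PSME2 fell (-0.40), and B2M, the light chain of all class I molecules, read 7.58 and 7.61 against 7.77 and 7.86 (adjusted p = 0.152). Of 16 class II genes HLA-DMB rose (0.46) and HLA-DQA1 was at least 2.46-fold higher. None of 6 guanylate-binding protein genes and UBD rose, and WARS1, listed with them, fell (-0.54). Of 11 measured chemokines CXCL13, the monocyte attractant CCL2 (1.99) and CXCL16 (0.75) rose and 0 fell.

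The IRF4-MYC axis is a list of 4 genes that the study drew from earlier work and reported as lower on these same arrays. It is therefore no independent evidence of a direction. The study compared the inhibitors with DMSO, also by qRT-PCR, which is another comparison than the one here. Of these genes 2 fell, and neither was called when the percentile was taken over detected probes or with quantile normalization. IRF4 went from 3.59 and 3.35 to 3.05 and 2.93 (-0.48 ± 0.12, 1.40-fold lower, adjusted p = 0.0490), and it was called in none of the 8 fits that left out an array, with an adjusted p of up to 0.195. MYC went from 4.66 and 4.43 to 4.05 and 3.92 (-0.56 ± 0.12, 1.48-fold lower, adjusted p = 0.0335) and was not called in 6 of those 8 fits. PRDM1, the master factor of plasma cells, differed by -0.31 (adjusted p = 0.109), and KLF2 by 0.11 (adjusted p = 0.530), with overlapping arrays of 2.10 and 1.94 against 2.17 and 2.09. All 4 genes stood higher on the DMSO arrays, KLF2 at 4.07 and 3.87. In the wider plasma cell identity list 3 of 18 fell (16.7%, against 8.65% of all genes), IRF4, the coactivator POU2AF1 (-0.43) and the surface protein SLAMF7 (-0.43), and FCRL5 rose. POU2AF1, like IRF4, was called in none of the 8 fits that left out an array, its second probe had the opposite sign, and the 3 falls became 0 with the percentile over detected probes or quantile normalization.

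Fc receptors and their FCRL relatives, which modulate B cell receptor signals, rose in 6 of 15 (40%, against 7.34% of all genes) and fell in 0. FCRL5, also a target of myeloma therapies, went from -0.31 and 0.19 to 1.84 and 2.36 (2.17 ± 0.22, 4.49-fold, adjusted p = 0.00851), and all 5 of its probes were higher. FCRL3 rose 3.24-fold, and FCGR2B, the inhibitory Fc receptor, 2.22-fold, from -0.41 and -0.11 to 0.89 and 0.90. FCGR2C rose 2.17-fold, but it is nearly identical to FCGR2B and the probes may share signal. In the B cell programme 3 of 24 rose (12.5%, near the share of all genes), BCL6, the activation marker CD83 (0.60) and MS4A1, which encodes CD20 and was at least 2.75-fold higher, and the factor SPI1 fell (-0.41). Without GSK126+UNC0638 replicate 2 the count of 6 Fc receptor genes was 1, without UNC0638 replicate 1 it was 2, and without either GSK126 array it was 3.

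**Figure D3:**
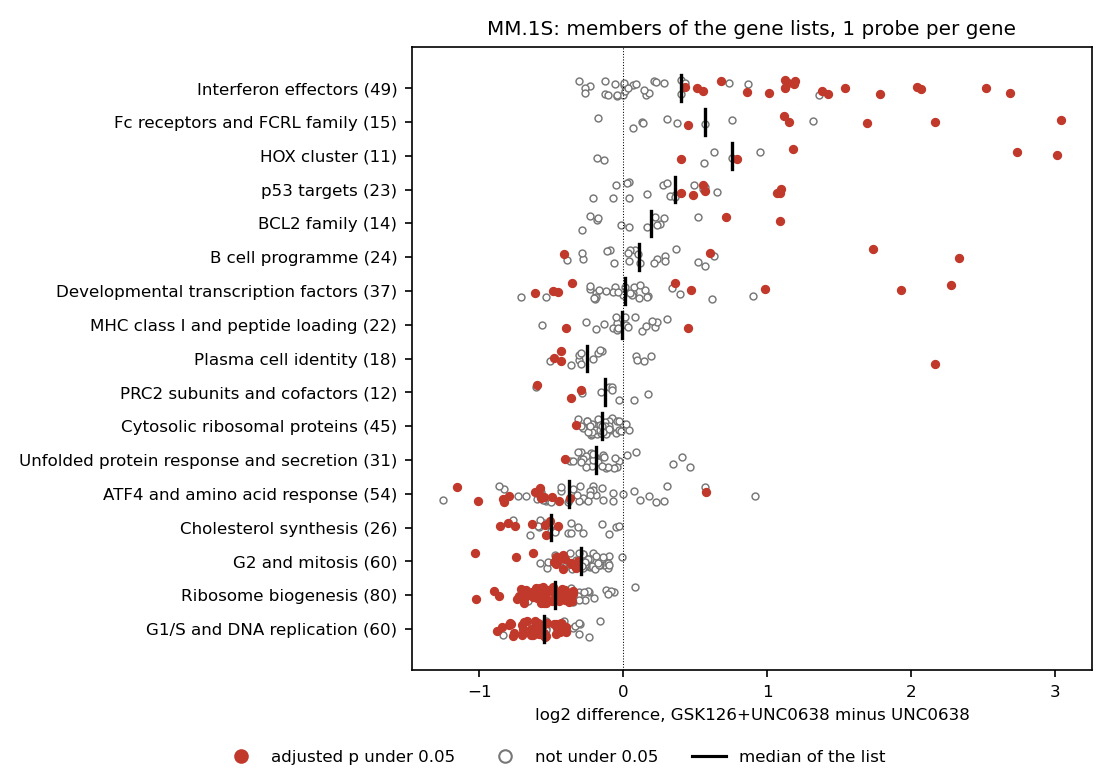
Log2 difference, GSK126+UNC0638 minus UNC0638, of the tested members of 17 gene lists at 1 probe per gene, with the number of members in parentheses. Filled points had an adjusted p below 0.05, open points did not and the bar is the median; it runs from 0.76 in the HOX cluster and 0.57 in the Fc receptors to -0.48 in ribosome biogenesis and -0.55 in G1/S genes, where no member was above 0.

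Among genes that myeloma treatments and niche contacts depend on, the shares that rose and fell were near the 7.34% and 8.65% of all genes, at 10% and 15% of 20 therapy targets and 8.33% and 12.5% of 24 homing and adhesion genes. Of the therapy targets FCRL5 and CD70 (0.74) rose, and TNFRSF13B, which encodes the TACI receptor (-0.73), SLAMF7 and the nuclear export receptor XPO1 (-0.32) fell. Of the homing and adhesion genes the integrins ITGAM (1.25) and ITGB1 (0.59) rose. The chemokine receptors CCR10 and CXCR3 and the adhesion protein CD58 fell, by 1.07, 0.81 and 0.48. CCR10 is known to guide plasma cells to mucosal tissue, and it went from 4.46 and 4.20 to 3.54 and 2.99 (adjusted p = 0.0242).

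All 60 tested G1/S and DNA replication genes were below 0, and 41 fell with an adjusted p below 0.05 where 8.65% of all genes did. The median difference was -0.55, against -0.05 over all genes. E2F2, an activator of S phase genes, read 5.17 and 5.00 with UNC0638 and 4.38 and 4.04 with both drugs (-0.88 ± 0.13, adjusted p = 0.0166). The replicative helicase subunit MCM7 went from 7.02 and 6.84 to 6.17 and 6.14 (-0.78 ± 0.09, adjusted p = 0.0107). The origin factor ORC1 (-0.84), the flap nuclease FEN1 (-0.79) and the methylation reader UHRF1 (-0.79) fell by like amounts. Of 60 G2 and mitosis genes 15 fell (25%) and 0 rose, with a median of -0.29, led by the spindle motor KIF11 at 2.82 and 2.75 against 1.47 and 2.05 (-1.03 ± 0.19, adjusted p = 0.0255). Of 13 D-type cyclins, CDKs and inhibitors RBL1 (-0.63), CDK4 (-0.57), CCND2 (-0.53) and CCND3 (-0.45) fell. CDKN1C, which encodes the CDK inhibitor p57, rose from 0.09 and -0.19 to 1.86 and 1.71 (1.84 ± 0.15, 3.57-fold, adjusted p = 0.00580), and CCND1 rose by 0.93. The E2F-type motif TTTNNCGC (N for any base) was in 6.9% of all promoter windows. It was in 17 of 34 G1/S genes that fell (50%) and 10 of 16 that did not pass (62.5%). For G2 and mitosis these were 1 of 13 (7.69%) and 7 of 40 (17.5%). The 41 G1/S calls became 0 without UNC0638 replicate 1 or without GSK126+UNC0638 replicate 2, 3 without UNC0638 replicate 2 and 22 or 23 without any one GSK126 or DMSO array, with the median of the list between -0.65 and -0.44. With the percentile over detected probes the falls were 21 in the G1/S and 3 in the G2 and mitosis list, and with quantile normalization 27 and 6. The 15 G2 and mitosis calls became 0 without either UNC0638 array, 1 without GSK126+UNC0638 replicate 2, 5 without any one DMSO array and 3 without any one GSK126 array.

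Ribosome biogenesis, the nucleolar work of making and assembling ribosomal RNA, also gave falls. Of 80 genes 57 fell (71.2%, against 8.65% of all genes) and 0 rose, and the median was -0.48. BOP1, a factor of the large subunit, went from 2.25 and 2.19 to 1.46 and 0.94 (-1.02 ± 0.16, 2.03-fold lower, adjusted p = 0.0185). LYAR (-0.89), RRP12 (-0.86) and the helicase DDX21 (-0.74) followed. The 45 genes for the ribosomal proteins themselves had a median of -0.14 and gave 1 fall, RPL8 (-0.33). The E-box CACGTG is the motif that MYC and its partners recognise. It was in the RefSeq promoter window of 16 of 46 biogenesis genes that fell (34.8%) and 7 of 21 that did not pass (33.3%). The share of all promoters was 7.43%, and the gap to it belongs to the list and does not bear on GSK126. The 57 falls became 0 without UNC0638 replicate 1, 3 without UNC0638 replicate 2, 36 without GSK126+UNC0638 replicate 1 and 2 without GSK126+UNC0638 replicate 2, and the list median stayed between -0.50 and -0.45.

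Among 54 genes of the ATF4 and amino acid response 13 fell (24.1%, against 8.65% of all genes) and 1, VLDLR (0.58), rose, with a median of -0.37. Besides SLC7A5, the glutamine transporter SLC1A5 fell from 1.18 and 1.01 to 0.18 and -0.0029 (-1.01 ± 0.22, adjusted p = 0.0362), as did the proline enzyme PYCR1 (-0.83) and the folate enzyme MTHFD1L (-0.83). ATF4 itself differed by -0.19 (adjusted p = 0.217). All 26 cholesterol synthesis genes were below 0 and 8 fell (30.8%), among them ACAT2 (-0.85), DHCR7 (-0.75) and FDFT1 (-0.63). Their median was -0.50, against -0.05 over all genes. The unfolded protein response and secretion list gave 1 fall in 31, the coat protein SEC23B (-0.40). Without UNC0638 replicate 1 or GSK126+UNC0638 replicate 2 both the ATF4 and the cholesterol list had 0 falls. Without UNC0638 replicate 2 these counts were 2 and 0, without any one DMSO array 7 and 3, without any one GSK126 array 7 and 11, and without GSK126+UNC0638 replicate 1 the cholesterol count was 3.

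Among genes for cell death, BBC3, which encodes the BH3-only protein PUMA, rose from 2.0 and 2.05 to 3.12 and 3.10 (1.09 ± 0.13, 2.13-fold, adjusted p = 0.0116). BMF, another BH3-only gene, rose by 0.71, so 2 of 14 measured BCL2 family genes rose and the other 12 had no call. That share, 14.3%, rests on 2 genes and was near the 7.34% of all genes. Of 17 death receptor and caspase genes the TRAIL receptors TNFRSF10D (0.93) and TNFRSF10B (0.57) rose. Known p53 targets rose in 7 of 23 (30.4%) and fell in 0, with a median of 0.36. PHLDA3 (1.10), BBC3, ZMAT3 (1.07) and SESN1 (0.55) were among them. Without UNC0638 replicate 1 or GSK126+UNC0638 replicate 2 the count of 7 was 0, without UNC0638 replicate 2 it was 2 and without GSK126+UNC0638 replicate 1 it was 3. In the NF-kappaB pathway 1 of 21 rose (4.76%, below the share of all genes), REL (0.80), and 1 fell, TNIP2 (-0.39).

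Textbook targets of PRC2 were mostly too dim to measure. Only 11 of 39 HOX genes passed the filter on dim probes, of which 5 rose (45.5%, against 7.34% of all genes) and 0 fell. Besides HOXB6 these were HOXB5 (at least 2.14-fold), HOXC4 (at least 1.62-fold), HOXB2 (0.79) and HOXB4 (0.40), 4 of the 5 lying in the HOXB cluster. HOXA9, the brightest HOX gene, read 0.60 and 0.51 against 0.54 and 0.22. Since a dim gene could pass the filter only through the group in which it was bright, this count describes the measured members and not the family. It was 2 without either UNC0638 array or GSK126+UNC0638 replicate 2, and 3 without GSK126+UNC0638 replicate 1 or any one GSK126 array. Of 112 developmental transcription factors 37 were measured, and 5 rose (13.5%) and 4 fell (10.8%), shares near those of all genes. KLF4 rose from -3.31 and -3.02 to -0.74 and -1.03 (2.28 ± 0.19, 4.85-fold, adjusted p = 0.00580) and SNAI2 was at least 1.62-fold higher, whereas PAX7 fell by 0.61. Of 11 measured cancer-testis antigens TEX19 (-1.33) and SYCP3 (-1.02) fell (18.2%, against 8.65% of all genes) and 0 rose, counts too small to describe the list.

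Neither of the genes that encode the drug targets passed the test. EZH2 read 3.25 and 3.26 with UNC0638 and 2.92 and 2.37 with both drugs (-0.61 ± 0.18, adjusted p = 0.0695). EHMT2 read 0.21 and 0.28 against 0.24 and 0.08, with overlapping arrays (adjusted p = 0.569). Of 12 PRC2 genes PHF19 (-0.60), RBBP7 (-0.36) and EED (-0.29) fell (25%, against 8.65% of all genes), a count too small to describe the list. SUZ12 differed by -0.29 (adjusted p = 0.0620). Of 16 H3K9 methyltransferases and readers SUV39H1 (-0.56) and TRIM28 (-0.43) fell (12.5%, near the share of all genes). Among 13 histone demethylases KDM7A, which removes methyl groups from lysines 9 and 27 of histone H3, rose from -0.33 and -0.32 to 0.66 and 1.26 (1.29 ± 0.19, adjusted p = 0.0153). It was the only call of that list (7.69%), near the 7.34% of all genes that rose. These probes measure RNA, not the activity of the enzymes.

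The effect of GSK126 in the presence of UNC0638 was set beside its effect in the absence of UNC0638, which rests on other arrays. Across 23264 probes tested in both, the differences correlated with r = 0.684 (rho = 0.609), as a description over probes that are not independent. Of 1455 probes that rose with GSK126+UNC0638, 1381 were also above 0 in GSK126 against DMSO, and 864 rose there too, which is 59.4% of the one list and 62.3% of the 1387 probes that rose versus DMSO. Among 2013 falls, 1906 were below 0 versus DMSO but 304 fell there, 15.1% of the one list and 41.4% of the 734 versus DMSO. Background rates of calls versus DMSO were 5.90% for rises and 3.14% for falls, 9.05% in all. The share of all probes above or below 0 versus DMSO was not counted, so the sign counts have no such background.

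A test of the difference between these effects called 0 of 25097 probes in limma, where 2456 (9.786%) had an unadjusted p below 0.05 and the smallest adjusted p was 0.140. With quantile normalization it called 4, with normexp background correction 31, with an intensity trend in the variance 3 and without UNC0638 replicate 1 also 3. With a median standard error of 0.18 for that difference, no single gene passed this test in the fit described. Gene lists varied in how their medians compared. Interferon effectors had a median of 0.40 with and 0.59 without UNC0638, and 16 of the 19 that rose also rose versus DMSO. RSAD2 differed by 2.07 with and 2.96 without UNC0638, DDX60 by 1.19 and 2.94, and IFIT1 by 1.54 and 1.53. G1/S genes had medians of -0.55 and -0.15, with 41 falls against 1, and 29 of the 60 had an unadjusted p below 0.05 for the difference between the effects. Ribosome biogenesis genes had medians of -0.48 and -0.21, with 57 falls against 4, and 26 of 80 at that unadjusted p. The ATF4 list went the other way, with medians of -0.37 and -0.74 and 13 falls against 35. Cholesterol genes had medians of -0.50 and -0.65, with 8 falls against 16.

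**Figure D4:**
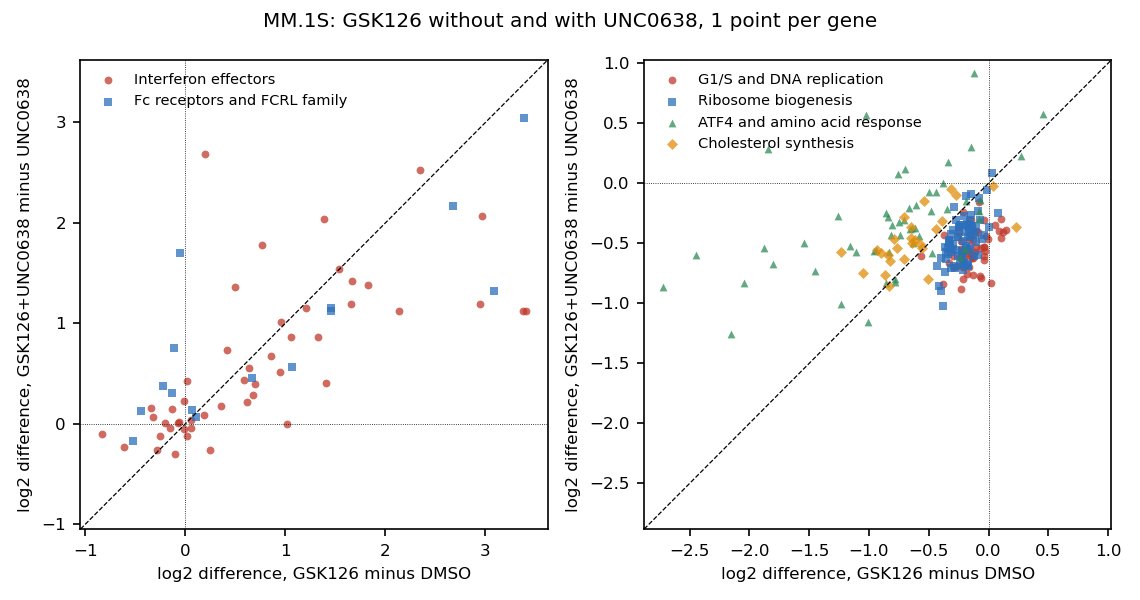
Log2 difference made by GSK126 in MM.1S without UNC0638 (x axis, GSK126 minus DMSO) and with it (y axis, GSK126+UNC0638 minus UNC0638), 1 point per gene tested in both, for lists that rose (left) and lists that fell (right). The dashed line marks equal differences; G1/S and ribosome biogenesis genes lie below it, with medians of -0.55 and -0.48 on the y axis and -0.15 and -0.21 on the x axis, while the ATF4 list, at -0.37 and -0.74, lies mostly above it.

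In RPMI-8226 cells the same addition called fewer probes, 643 higher (2.83%) and 160 lower (0.705%) of 22700. Among probes tested in both lines, 139 rose in each, 12% of the 1157 rises in MM.1S and 35.4% of the 393 in RPMI-8226, and 21 fell in each, 1.09% of 1923 and 20.8% of 101. The differences correlated with r = 0.449 across 20793 probes. All MM.1S arrays lay on 1 slide of 2, so cell line and slide cannot be told apart where the lines are compared. Interferon effectors had a median difference of 0.95 in RPMI-8226 and 0.40 in MM.1S, G1/S genes -0.35 and -0.55, and ribosome biogenesis genes -0.39 and -0.48. In RPMI-8226 9 of 43 tested effectors rose, where 2.83% of all probes did. There limma called 0 of 60 G1/S and 0 of 80 ribosome biogenesis genes lower, although their medians were below 0. Of all probes it called 0.705% lower. A test of the difference between the lines called 604 of 26317 probes (2.30%), 204 higher (0.775%) and 400 lower (1.52%) in MM.1S, and between 287 and 711 when single arrays were left out.

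CXCL13, which was too dim for a test in RPMI-8226 on its own, differed by 4.63 in MM.1S and 0.18 in RPMI-8226 (adjusted p of the difference between the lines 0.000121). TNFRSF25, a death domain receptor, rose from -4.20 and -4.50 to -2.32 and -2.35 in MM.1S and fell from 4.58 and 4.61 to 3.36 and 3.77 in RPMI-8226 (adjusted p = 0.000109). The corepressor TLE5 differed by 2.30 in MM.1S and -0.06 in RPMI-8226, where it stood at 3.80 and 3.93 with UNC0638 against -1.16 and -1.18 in MM.1S. NRCAM, a neural adhesion molecule, differed by 2.0 and -0.30, and its other probe by 1.16 in MM.1S without a call. ADAMTSL2 differed by 1.79 and -1.61 (by 1.21 and 1.55 on its other probes in MM.1S, of which 1 was called), CTTN by 1.28 and -1.73, and DPY19L2P3 by 0.99 and -1.96, though the other probes of DPY19L2P3 differed by at most 0.34 in MM.1S. In the opposite direction, the chemokine CCL3 was bright in MM.1S, at 8.22 and 8.0 against 7.56 and 8.09, and did not pass the test there, while in RPMI-8226 it differed by 3.09. HBG1 (0.03 and 4.20), MYO1E (-0.04 and 3.09), GDF15 (0.20 and 3.17) and MTARC1 (0.06 and 2.95) passed the test in RPMI-8226 and not in MM.1S. The 2 RPMI-8226 arrays of HBG1 with GSK126+UNC0638 stood far apart, at 2.34 and -0.17, so the size of its change is uncertain. HBG1 also has a nearly identical neighbour whose RNA its probe may share.

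**Figure D5:**
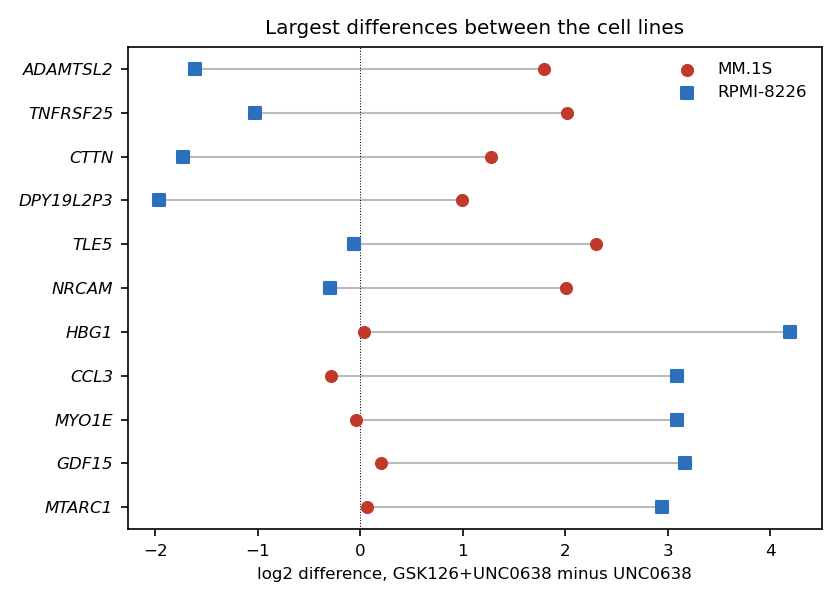
Log2 difference, GSK126+UNC0638 minus UNC0638, in MM.1S (circles) and RPMI-8226 (squares) for 11 of the genes with the largest differences between the lines among probes measured on both sides. The grey line joins the values of a gene; the first 6 genes were higher in MM.1S, by 2.30 to 3.40, and the last 5 were lower, from HBG1 at -4.17 to MTARC1 at -2.89.

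Of the 262 genes of the lists or of the naming rule that passed the test, 16 did so without any one array and under each other setting that gave them a value. They were CXCL13, HOXB6, HOXB5, NOG, SYNPO, ADGRA2, LY6D, CYP4F2, TSHZ2, FCRL5, CCND1, CDKN1C, KLF4 and DCN, which were higher with GSK126+UNC0638, and LDHB and GTSE1-DT, which were lower. Of these, ADGRA2, LY6D, CYP4F2, TSHZ2, HOXB5 and DCN were well above background on neither UNC0638 array. They passed the filter only through the GSK126+UNC0638 arrays. A filter requiring all arrays gave them no value, so they could not be lost under it. CXCL13 ranged from 4.34 to 4.93 when single arrays were left out, HOXB6 from 2.87 to 3.17 and CDKN1C from 1.70 to 1.98. DCN encodes the matrix proteoglycan decorin and was on the list of fibroblast markers, but it was only at least 1.20-fold higher, since it stayed near the dimmest signal that could be measured, at -4.57 and -4.51. No interferon, G1/S or ribosome biogenesis gene was among the 16.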

How the data were processed

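Total RNA was amplified, labelled with Cy3 and hybridised by the authors to 1-colour Agilent SurePrint G3 Human GE v2 arrays, 1 sample per array. They deposited the scanner output of Feature Extraction 10.7, in which gProcessedSignal is a linear intensity after background subtraction and detrending, not normalized between arrays. A deposited table of the whole series holds the same intensity values rounded, and its use was an alternative. Probe positions are those of the files (GRCh37); exons and UTRs were not assigned. Current symbols came from RefSeq accessions.

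Outlier spots (226 to 256 of 62976 per array) and control spots were removed. Each log2 intensity was taken relative to the 75th percentile of its array (437.6 to 476.7 intensity units in the 4 arrays), and repeated spots were averaged. A probe was kept where both arrays of either group were well above background (24421, of which 5 had no unmarked spot on an array), and tested with lmFit and eBayes of limma 3.58.1 in R 4.3.3, in 1 fit of the 8 MM.1S arrays, or of all 16 for the comparison of the lines, with Benjamini-Hochberg adjustment over all probes tested and a threshold of 0.05. The fit was tested on simulated data. Precision is limited by having 2 arrays in each group, and the p-values measure the spread between these samples, which the study calls biological replicates.

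The text names the 12 genes that the study singled out, the 12 largest rises and 12 largest falls among called, non-overlapping probes measured in both groups, the 8 rises and 4 falls with the largest lower bound, up to 4 called and 2 bright uncalled members of a list, and the 6 largest differences between the lines in each direction, apart from some genes that are not reported here. Genes that exceed these numbers in a list were named after their values were seen. A listed gene is represented by 1 probe. The members of the 35 lists and the comparison itself were chosen with earlier results of these data known. Lists were described by counts and medians and not tested. Alternatives were another normalization, background correction, filter, variance model, set of arrays and replicate block, and leaving out each array. For the main comparison, leaving out either DMSO array gives the same fit, as does leaving out either GSK126 array. The fits without an array are therefore not all separate checks.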

Additional observations from a re-analysis of the deposited data

Results flagged for a closer look

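The effect of adding GSK126 to UNC0638 differed between the cell lines for 604 probes in the limma test of the difference itself, and 23 genes of the lists or of the naming rule are given here. The values are the MM.1S difference minus the RPMI-8226 difference, on the log2 scale. Cell line and slide cannot be told apart in them.

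The differences were positive, that is higher in MM.1S, for the chemokine CXCL13 (4.45), for DNER (4.13), LY6D (3.95), ADAMTSL2 (3.40), TNFRSF25 (3.04), CTTN (3.01), DPY19L2P3 (2.96), ADGRA2 (2.64), TSHZ2 (2.62), TLE5 (2.36), NRCAM (2.30), SYNPO (2.25) and HOXB6 (1.82). They were negative for HBG1 (-4.17), CCL3 (-3.37), GSG1 (-3.33), SPACA3 (-3.16), MYO1E (-3.13), GDF15 (-2.97), MTARC1 (-2.89), CDC23 (-1.79), LDHB (-1.35) and IRF9 (-0.93). CXCL13, DNER, LY6D, TSHZ2, SYNPO and GSG1 were too dim for a test in RPMI-8226 on its own. In MM.1S, DNER, LY6D, ADGRA2 and TSHZ2 were well above background on neither UNC0638 array, and CDC23 on neither GSK126+UNC0638 array. The sizes of their differences thus rest on dim readings and are not exact. The other probes of LDHB and CDC23 differed by only -0.36 and -0.32 in MM.1S. The interferon signalling gene IRF9 differed by 1.28 in RPMI-8226, where it rose, against 0.35 in MM.1S, where it did not pass the test, with an adjusted p of 0.0408 for the difference between the lines.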

How the results depend on the processing

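Of 262 genes of the lists or of the naming rule, counted because they passed the test, 0 changed sign under any setting, which that choice makes likely, and 241 were no longer called without UNC0638 replicate 1, 239 without GSK126+UNC0638 replicate 2, 210 without UNC0638 replicate 2 and 111 without GSK126+UNC0638 replicate 1. Leaving out single arrays gave 268 to 2267 calls in all, 178 to 1274 higher and 16 to 1262 lower. The test of the difference between GSK126 with and without UNC0638 then called 0 to 3 in all, each of them higher, and that between the lines 287 to 711, with 79 to 225 higher and 184 to 488 lower in MM.1S.

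Without the filter on dim probes 515 were called (363 higher, 152 lower), in a fit of only the 4 arrays 553 (470 and 83), in a fit of all 16 arrays 1528 (751 and 777), with an intensity trend 5690 (3544 lower), and with a 2-fold minimum 675 (598 and 77). With the percentile over detected probes 848 were lower. The difference between the GSK126 effects with and without UNC0638 gave 4 calls, all higher, with quantile normalization, 31 with normexp (26 higher, 5 lower) and 3, all higher, with the trend. With normexp the log2 difference was more than 1.5 times smaller for 15 of 18 of the largest rises and 11 of 16 of the largest falls, but not for LDHB (-1.96), SRM (-1.26) or SLC7A5 (-1.09). Of the 262 calls 85 were lost with the percentile over detected probes, 71 with quantile normalization, 110 with all 16 arrays, 210 with only the 4 and 227 without the filter, where the G1/S falls numbered 21, 27, 28, 0 and 1, the ribosome biogenesis falls 38, 40, 31, 2 and 5, and the interferon effector rises 20, 19, 10, 8 and 2. For the difference between lines, a filter requiring all arrays above background left 208 (98 higher, 110 lower). The cause of these shifts was not tested, beyond the fewer samples or other probes that a setting itself brings.

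With the replicate number as a block the main comparison called 4842 (3534 of them shared with the 3656), with 8 of the 262 lost, IRF4 and POU2AF1 among them, the difference between the GSK126 effects 0, and that between lines 1049 (420 higher, 629 lower). The deviations of same-numbered arrays correlated at 0.0847 to 0.225 over 6 pairs of groups, 5 of them over 0.1, and at 0.164 between the groups compared. The labels give only a replicate number, so the main fit held no block. Whether same-numbered arrays form pairs was not tested further. All MM.1S arrays lay on 1 slide of 2, so the slide was not run as a block, and cell line and slide cannot be told apart. Genes without a call that changed sign were EZH1 and RBBP4 with quantile normalization (0.0247 and 0.0635), EZH1, RBBP4 and PHF1 with the percentile over detected probes (0.06, 0.0109 and 0.0113) and, between the lowest and highest value without any one array, OAS3 (-0.11 to 0.43), EZH1 (-0.12 to 0.06), RBBP4 (-0.26 to 0.11), JARID2 (-0.0742 to 0.23) and PHF1 (-0.19 to 0.0354). A list with no probe left under a stricter filter gave no value.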

Other observations

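The probe with the smallest p-value of the comparison belonged to a transcript without a gene name, XLOC_l2_002469, and was chosen after its values were seen. It read -1.75 and -1.80 with UNC0638 and 0.71 and 0.65 with GSK126+UNC0638, a 5.49-fold rise (2.46 ± 0.09, limma adjusted p = 0.00114), and it differed by 2.24 between GSK126 and DMSO.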
